A study of Mus musculus with 36 samples.

Results

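The potassium channel genes *Kcnh1* to *Kcnh8* are the 8 genes of the ether-à-go-go (EAG) family in the mouse. They were taken by symbol from the 24421 genes counted in the cerebellum and the hippocampus of 18 C57Bl/6 mice, and all 8 were found in both tables. Adult control mice carried 2 floxed *Pogz* alleles and no Cre (*Pogz* fl/fl), cKO+/- mice carried NesCre/+ and Pogz fl/+, and cKO-/- mice carried NesCre/+ and Pogz fl/fl, with 6 mice (3 females and 3 males) per genotype, all adult. *Pogz* encodes a zinc finger protein of heterochromatin, and Cre driven by the *Nestin* promoter removed exons 13 to 19 of the gene in the nervous system, so that 2, 1 and 0 alleles stayed intact there. Since no control carried Cre, its presence and the loss of *Pogz* cannot be told apart in comparisons with control, the dosage fits included. Both knockout groups carried NesCre/+, so Cre does not differ between them. The family was chosen by the measured genotype effect on *Kcnh3*, which was lower in the cerebellum of the knockouts than in controls, so the genotype values of *Kcnh3* are given below as a description without a test, and the other 7 members, the tissues and the sexes are compared by tests.

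EAG-family channels are voltage-gated potassium channels assembled as tetramers. Each subunit carries an intracellular domain at its start and a domain related to cyclic nucleotide binding domains near its end, although cyclic nucleotides do not gate these channels. The family has an EAG branch (*Kcnh1*, *Kcnh5*), an ERG branch (*Kcnh2*, *Kcnh6*, *Kcnh7*) and an ELK branch (*Kcnh3*, *Kcnh4*, *Kcnh8*). *Kcnh2* is known for repolarizing the cardiac action potential, gain-of-function variants of *KCNH1* cause syndromes with epilepsy, and *Kcnh3* is a channel of forebrain neurons that opens at subthreshold voltages and restrains excitability in the hippocampus.

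The members are read here as separate genes, and a stretch that all of them encode is the potassium-selective pore. The coding bases around it are shown, 5′ to 3′, to let the branches be compared. Capitals mark the bases that encode the core of the selectivity filter, found by searching the coding strand in frame for a codon GTN or ATN (N is any base) followed by the codons GGN, TTN and GGN. For each of the 8 members the longest coding sequence that held this motif was taken, and the motif occurred once in it. Longer coding sequences without the motif were passed over. It occurred in 1.67% of 22594 coding genes (GENCODE M1 transcripts of the mouse build NCBIM37).
Kcnh1: accagtgtgGGCTTTGGTaacattgcc
Kcnh5: acaaccataGGATTTGGAaacatagct
Kcnh2: accagcgtgGGCTTTGGCaatgtctct
Kcnh6: actagtgtgGGCTTCGGCaatgtgtca
Kcnh7: accagtgtaGGATTTGGAaatgtgtct
Kcnh3: accagtgtgGGCTTCGGCaacgtgtcc
Kcnh4: accagtgtaGGCTTCGGCaacgtgtgt
Kcnh8: acaagcgttGGGTTTGGGaatgtgtct
Over these 27 bases *Kcnh3* matched *Kcnh4* and *Kcnh6* at 24 positions, *Kcnh1* and *Kcnh2* at 22, *Kcnh7* at 21, *Kcnh8* at 19 and *Kcnh5* at 15. Reads were 43 bases long, so the transcripts were also searched for shared stretches of that length. Of the 3694 windows of 43 bases in *Kcnh3* transcripts, 0 occurred in a transcript of another gene on either strand. The same held for *Kcnh1*, *Kcnh2*, *Kcnh4*, *Kcnh5*, *Kcnh8* and *Mcrs1*, while *Kcnh6* shared 3 of 3556 windows with 1 other gene. *Kcnh7* shared 5.61% of its 14607 windows with 671 other genes. Those windows come from all its transcripts, while 3798 exonic bases were counted for it. Whether the shared windows lie in the counted exons was not checked, so their effect on its counts is not known.

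*Kcnh3* ends where another gene ends. In the coordinates of the tables, which match the build GRCm38, *Kcnh3* lies on the plus strand at chr15:99224976-99242817, with 15 exon blocks and an exonic length of 3583 bases. *Mcrs1*, which encodes a protein of chromatin remodelling and histone acetylation complexes, lies on the minus strand at chr15:99242817-99251961, with 15 exon blocks and an exonic length of 1916 bases. The 2 genes converge and share exactly 1 base, which is exonic in both and is the last base of each. The other 7 members overlapped no other gene of the tables. Whether the counting used strand is not stated in the sources used here, so reads that cross that base cannot be assigned to one gene or the other with certainty. As the exon map shows, the shared base is the end of the longest exon of *Kcnh3*.

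**Figure D1:**
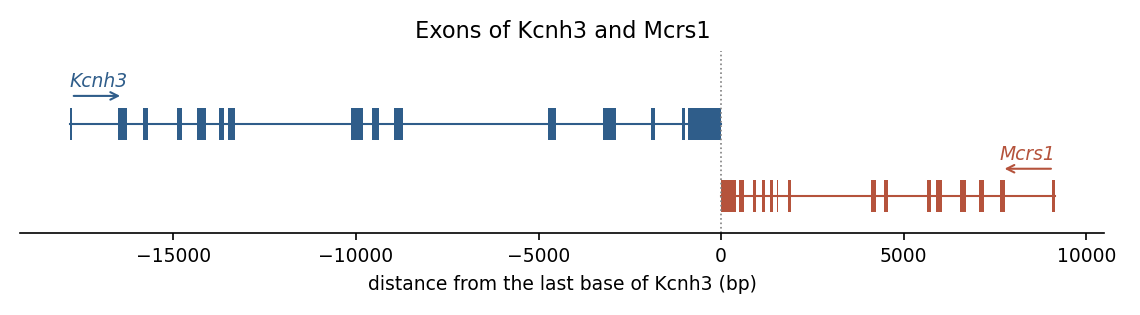
Exons (boxes) of *Kcnh3* and *Mcrs1* along the distance in base pairs from the last base of *Kcnh3*. Arrows give the direction of transcription. The genes run towards each other and meet at distance 0, where they share 1 base.

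Each cerebellar library held 21421850 to 32544929 counts on genes, and each hippocampal library 17609321 to 45544188. The deleted gene checked the labels. *Pogz* was below every control in all 6 cKO+/- and all 6 cKO-/- cerebella, and its log2 fold change per lost allele was -0.30 (SE 0.046, adjusted p 0.000356) in the cerebellum and -0.28 (SE 0.020, adjusted p 1.79e-07) in the hippocampus. Some libraries stood apart. The hippocampal library of Sample_1160, a cKO-/- female, was left out of the hippocampal fits, as the study left out an outlier RNA sample that it does not name, and member values with it are given beside the allele effects. The cerebellar libraries of Sample_933, Sample_936 and Sample_1433 held *Ttr*, a marker of choroid plexus, at 2177, 2807 and 2935 CPM (counts relative to the library total, scaled by TMM factors within a tissue), against at most 1.13 CPM in control cerebella. Hippocampal libraries varied in *Ttr* too. It stood at 4557 and 2169 CPM in control Sample_1129 and Sample_1170. In cKO-/- Sample_1385 and Sample_1219 it stood at 4542 and 1018 CPM. It was at 591 CPM in cKO+/- Sample_1189 and at or below 119 CPM in the other hippocampal libraries. No hippocampal fit left these libraries out together. The hippocampal library of control Sample_1129 also held *Gabra6*, a marker of cerebellar granule cells, at 49.4 CPM, against at most 1.09 CPM in the other hippocampal libraries. Lastly, Sample_933, Sample_938, Sample_936, Sample_1371, Sample_1379, Sample_1385 and Sample_1433 carry numbers outside the run from Sample_1120 to Sample_1219 that holds every control, and none of these 7 is a control. What separates these numbers is not given in the labels.

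The first comparison asks where each member is expressed without any deletion. It used the 6 control mice, each of which gave both tissues, and edgeR's quasi-likelihood test with Benjamini-Hochberg adjustment over 14224 genes. The fit held terms for tissue and sex and none for the animal, so that the pairing of the tissues was not used. In control hippocampus *Kcnh3* was the highest member per exonic length, and in control cerebellum it stood behind *Kcnh1* and *Kcnh2*. Of the 4 members that passed the filter in both tissues, *Kcnh3* and *Kcnh7* were called higher and *Kcnh2* lower in the hippocampus, and *Kcnh1* was not called, beside 71.9% of all genes called (35.2% higher and 36.7% lower). *Kcnh4* and *Kcnh5* passed only through the hippocampal libraries, so that their calls as higher there follow in part from the filter.

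*Kcnh3* had the largest tissue difference of the family. In control cerebellum it ranged from 4.26 to 7.27 CPM with a median of 4.99, and in control hippocampus from 120 to 140 CPM with a median of 130.4. The groups did not overlap, and the log2 difference of hippocampus over cerebellum was 4.67 (SE 0.13, adjusted p 1.96e-12), a 25.5-fold higher level. The share of all genes whose control tissues do not overlap was not counted. Leaving out control Sample_1129, which carries cerebellar markers in its hippocampal library, gave 4.62.

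The other ELK members followed the same direction at much lower levels. *Kcnh4*, an ELK channel described mainly in the brain, ranged from 0.206 to 0.532 CPM in control cerebellum and from 2.99 to 6.55 CPM in control hippocampus (log2 difference 3.60, SE 0.22, adjusted p 5.47e-09). *Kcnh8* ranged from 0.032 to 0.137 CPM and from 0.670 to 1.43 CPM and was under the filter of 1 CPM in 6 libraries. In a fit without that filter its log2 difference was 3.51 (SE 0.36, adjusted p 4.38e-07), where 58.5% of all genes were called. In both genes no cerebellar library reached a hippocampal one, a pattern whose share over all genes was not counted.

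In the EAG branch the 2 members parted. *Kcnh5* ranged from 0.0354 to 0.550 CPM in control cerebellum and from 2.46 to 6.71 CPM in control hippocampus (log2 difference 4.02, SE 0.28, adjusted p 1.72e-08). *Kcnh1* had a log2 difference of only 0.04 (SE 0.13, 95% interval -0.21 to 0.29, adjusted p 0.782), with 54.1 to 100.3 CPM in the cerebellum and 72.1 to 87.7 CPM in the hippocampus. *Kcnh4* and *Kcnh5* entered the test only through their hippocampal libraries, so that a difference was built into their passing.

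In the ERG branch the directions differed. *Kcnh2* was the only member that was lower in the hippocampus, at 27.8 to 38.4 CPM against 35.4 to 52.7 CPM in the cerebellum (log2 difference -0.33, SE 0.098, adjusted p 0.00832), and the tissues overlapped. Its adjusted p ranged from 0.0098 to 0.0565 when 1 control was left out, and the call was lost without control Sample_1155. *Kcnh7* was higher in the hippocampus, at 4.03 to 17.3 CPM against 0.320 to 3.61 CPM (log2 difference 1.84, SE 0.42, adjusted p 0.00136). *Kcnh6*, under the filter, had a log2 difference of 1.55 (SE 0.21, adjusted p 1.10e-05) in the fit without it.

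Per exonic length, given as RPKM (CPM per kilobase of exon), the order in control cerebellum was *Kcnh1* 11.3 ± 2.35 (SD, n = 6), *Kcnh2* 9.42 ± 1.24, *Kcnh3* 1.53 ± 0.379, *Kcnh7* 0.640 ± 0.306, *Kcnh6* 0.197 ± 0.0462, *Kcnh4* 0.107 ± 0.034, *Kcnh5* 0.0700 ± 0.0476 and *Kcnh8* 0.0194 ± 0.00867. In control hippocampus it was *Kcnh3* 36.4 ± 1.92, *Kcnh1* 11.0 ± 0.831, *Kcnh2* 7.05 ± 0.972, *Kcnh7* 2.39 ± 1.36, *Kcnh4* 1.24 ± 0.325, *Kcnh5* 1.05 ± 0.409, *Kcnh6* 0.557 ± 0.142 and *Kcnh8* 0.219 ± 0.0785. Neighbours whose libraries did not overlap were *Kcnh2* and *Kcnh3*, *Kcnh3* and *Kcnh7*, and *Kcnh6* and *Kcnh4* in the cerebellum, and *Kcnh3* and *Kcnh1*, *Kcnh1* and *Kcnh2*, *Kcnh2* and *Kcnh7*, and *Kcnh6* and *Kcnh8* in the hippocampus. With 6 libraries the smallest p of the 2-sided exact sign-flip permutation test is 0.031, which these 7 of 14 pairs reached, and none passed after adjustment over the 7 pairs of a tissue (smallest adjusted p 0.0729 in the cerebellum and 0.0547 in the hippocampus). Lengths are those of the tables, and a transcript end that they miss would move a gene in this order.

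**Figure D2:**
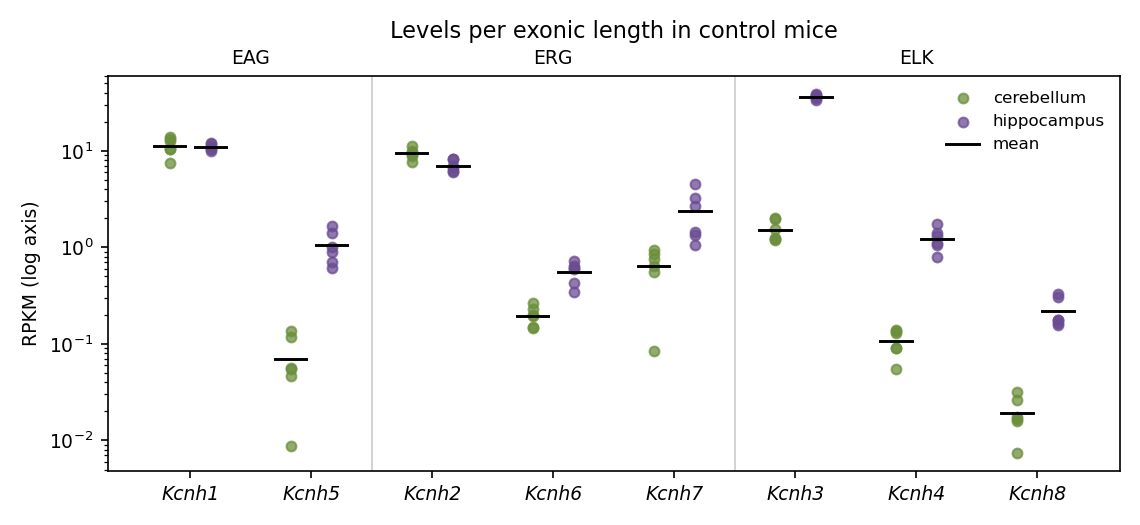
RPKM (log axis) of each member in the 6 control mice, by tissue and branch of the family. Points are libraries and black bars are means. *Kcnh3* is at 36.4 RPKM in the hippocampus and 1.53 RPKM in the cerebellum, *Kcnh1* at about equal levels in both.

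The second comparison follows *Pogz* dosage. *Kcnh3* was lower in the cerebellum of both knockout groups than in any control. Control cerebella ranged from 4.26 to 7.27 CPM (115 to 205 reads), with a mean of 5.47 ± 1.36 (SD, n = 6). In cKO+/- cerebella the range was 1.22 to 3.70 CPM around a median of 1.78, with a mean of 2.21 ± 1.08 (n = 6), and in cKO-/- cerebella it was 0.605 to 2.45 CPM around a median of 1.11, with a mean of 1.24 ± 0.666 (n = 6). All 6 cKO+/- and all 6 cKO-/- libraries lay below every control, while the 2 knockout groups overlapped. The means of the cKO+/- and cKO-/- groups were 40.3% and 22.7% of the control mean.

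In the fit, the log2 fold change of *Kcnh3* in the cerebellum was -1.12 per lost allele (SE 0.12), which is 0.461 of the level for each allele. With genotype as a factor it was -1.40 (SE 0.22) in cKO+/- and -2.21 (SE 0.23) in cKO-/- against control, and -0.81 (SE 0.23) between the 2 knockout groups. Among all genes tested in the cerebellum, 13.7% were called for the dosage effect (6.55% lower), and 1.9% had every cKO-/- library below every control. These values chose the gene, and nothing is read from them. Fewer cells of a type and less RNA per cell cannot be told apart in such bulk tissue.

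In the hippocampus the same gene was about as high in cKO+/- as in control mice. Control libraries ranged from 120 to 140 CPM with a mean of 130.5 ± 6.88 (SD, n = 6), cKO+/- libraries from 115 to 133 CPM with a mean of 128 ± 6.95 (n = 6), and cKO-/- libraries from 98.1 to 138 CPM with a mean of 117 ± 15.3 (n = 5). The groups overlapped, with 3 of the 5 cKO-/- libraries below every control. The log2 fold change per lost allele was -0.08 (SE 0.036), or -0.17 (SE 0.0715) for cKO-/- against control. The allele effect was 1.03 (SE 0.11) higher in the hippocampus than in the cerebellum on the log2 scale. Beside a covariate for the animals with numbers outside the run that holds the controls, the hippocampal estimate was -0.05 (SE 0.0473). In CPM the mean was 13.8 lower in cKO-/- than in control hippocampus and 4.23 lower in cerebellum, from levels that differ by the tissue gap described above.

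With the library of Sample_1160, which held *Kcnh3* at 239 CPM, the hippocampal estimate was 0.03 (SE 0.076) in place of -0.08. The cerebellar estimate of *Kcnh3* lay between -1.29 and -1.06 over 27 alternatives. It was -1.12 without the 3 libraries high in *Ttr*, -1.18 beside a covariate for the animals with numbers outside that run, and -1.29 in the 11 animals within it. Within the run, cKO+/- cerebella held 2.33 ± 1.23 CPM (SD, n = 3) and the 2 cKO-/- cerebella held 0.733 and 1.21 CPM, all below every control. The covariate's own term, which the choice of the gene did not use, was not called for *Kcnh3* (0.18, SE 0.26, adjusted p 0.718).

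**Figure D3:**
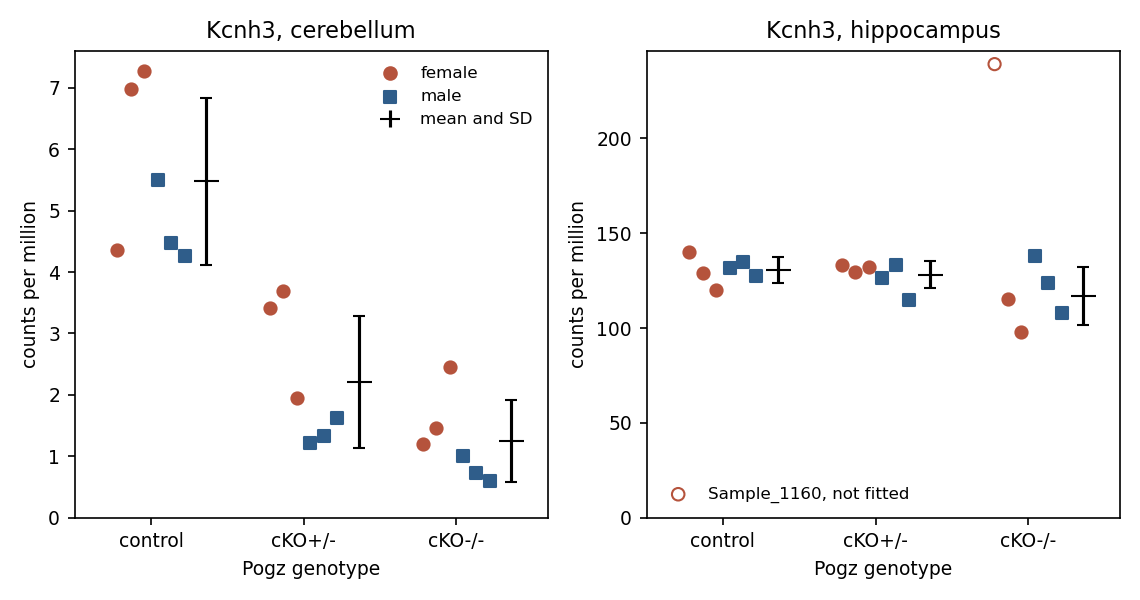
CPM of *Kcnh3* in every library by genotype and sex in the cerebellum and the hippocampus, on axes that start at 0 and differ in scale. Bars are means and SD of the fitted libraries, and the open circle is the hippocampal library of Sample_1160 at 239 CPM. All 12 knockout cerebella lie below the 4.26 CPM of the lowest control.

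Since *Kcnh3* is so much higher in forebrain tissue, markers of forebrain excitatory neurons were read in the same cerebella. Of 5 markers, *Emx1* and *Fezf2*, which define the cerebral cortex and its projection neurons, were below 1 CPM in every cerebellar library, controls included. The summed level of the 5 ranged from 8.46 to 11.5 CPM in control, 9.13 to 15.2 CPM in cKO+/- and 11.0 to 20.8 CPM in cKO-/- cerebella, against 371 to 468 CPM in control hippocampus. Of the 2 markers tested in the cerebellum, *Neurod6* rose (log2 fold change per allele 0.25, SE 0.078, adjusted p 0.0377), and *Slc30a3* was not called (0.32, SE 0.16, adjusted p 0.186). Granule cell markers summed to 5682 to 6502 CPM in control, 3794 to 7201 CPM in cKO+/- and 3333 to 6856 CPM in cKO-/- cerebella, and 0 of 6 were called (log2 fold changes -0.19 to -0.10). Purkinje cell markers summed to 7137 to 10714 CPM, 7856 to 13183 CPM and 7812 to 16455 CPM, with 1 of 6 called, higher. The part of the forebrain, granule and Purkinje cell levels in the *Kcnh3* values was not tested.

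Sex is a second measure of *Kcnh3* that the choice of the gene did not use. In control cerebella, females held 4.36 to 7.27 CPM and males 4.26 to 5.50 CPM. In cKO+/- cerebella, females held 1.94 to 3.70 CPM and males 1.22 to 1.62 CPM, and in cKO-/- cerebella, females held 1.21 to 2.45 CPM and males 0.605 to 1.01 CPM. Every female was thus above every male in both knockout groups, while the sexes overlapped in controls. With 3 mice per sex, the share of all genes that separate in this way was not counted. Such splits were also found in other members. In the hippocampus the sexes were apart in some genotypes for *Kcnh1*, *Kcnh5*, *Kcnh6* and *Kcnh7*. Females were below males for *Kcnh5* in control hippocampi and above them in cKO-/- hippocampi. In cKO+/- cerebella every female was below every male for *Kcnh4* and *Kcnh8*. The female minus male log2 difference of *Kcnh3* in the cerebellum was 0.82 (SE 0.19). It did not pass adjustment (p 0.000387, adjusted p 0.371, edgeR), with 0.0499% of all genes called by edgeR. DESeq2, which called more genes for sex in the cerebellum than edgeR did, called it (0.82, adjusted p 0.032). In the hippocampus the difference was -0.03 (SE 0.057, adjusted p 0.808). Whether the sexes differ in their response to *Pogz* dosage was not tested.

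The genes next to *Kcnh3* were tested as independent of its choice. *Mcrs1*, with 502 to 968 reads per cerebellar library against 13 to 205 for *Kcnh3*, held 26.6 ± 2.51 CPM in control, 24.6 ± 1.49 CPM in cKO+/- and 24.1 ± 1.38 CPM in cKO-/- cerebella (SD, n = 6 each). Its log2 fold change per allele was -0.07 (SE 0.033, adjusted p 0.146), with 3 of 6 cKO-/- libraries below every control. In the hippocampus it was -0.01 (SE 0.035, adjusted p 0.867), at 28.2 ± 1.62 CPM in control and 27.7 ± 2.66 CPM in cKO-/- mice (n = 5). Within 100 kb of *Kcnh3*, 5 of 6 genes were tested in each tissue, and 0 were called in either (log2 fold changes -0.13 to 0.14 in the cerebellum and -0.04 to 0.10 in the hippocampus), beside 13.7% and 4.44% of all genes. The smallest adjusted p among them was 0.0805, for *Prpf40b* in the cerebellum (-0.13).

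Of the other 7 members, none that passed the filter on low counts was called for *Pogz* dosage in either tissue, and *Kcnh8* passed it in neither. In the cerebellum 3 of them passed the filter and 0 were called, beside 13.7% of all genes, and their median log2 fold change was 0.17, against 0.00 over all genes tested. In the hippocampus 6 passed and 0 were called, beside 4.44% of all genes, with a median of -0.07. For the tissue difference of the allele effect, 0 of 3 were called, beside 1.49% of all genes. At an unadjusted p under 0.05 stood *Kcnh2* and *Kcnh7* in the cerebellum, *Kcnh1* in the hippocampus and *Kcnh2* for the tissue difference. DESeq2 called 0 members in each of the 3 comparisons.

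In the EAG branch, *Kcnh1* held 82.0 ± 17.04 CPM in control, 79.3 ± 13.1 CPM in cKO+/- and 69.1 ± 18.8 CPM in cKO-/- cerebella (SD, n = 6 each), with a log2 fold change per allele of -0.12 (SE 0.087, adjusted p 0.353). In the hippocampus it held 72.1 to 87.7 CPM in control, 54.8 to 79.1 CPM in cKO+/- and 60.6 to 76.8 CPM in cKO-/- mice, and 4 of the 5 cKO-/- libraries lay below every control. The hippocampal log2 fold change was -0.12 (SE 0.042, p 0.00856, adjusted p 0.105), and it was called only when cKO-/- Sample_1385 was left out (-0.17, adjusted p 0.0245). Beside the covariate for the animal numbers it was -0.09 (SE 0.057, adjusted p 0.886). *Kcnh5* in the hippocampus held 4.26 ± 1.66 CPM in control and 3.94 ± 0.549 CPM (n = 5) in cKO-/- mice (log2 fold change -0.06, SE 0.12, adjusted p 0.818).

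In the ERG branch, *Kcnh2* held 43.8 ± 5.75 CPM in control, 54.6 ± 10.9 CPM in cKO+/- and 55.5 ± 13.5 CPM in cKO-/- cerebella (SD, n = 6 each), a log2 fold change per allele of 0.17 (SE 0.078, adjusted p 0.145). Its hippocampal value was -0.09 (SE 0.047, adjusted p 0.303). The difference between the tissues was -0.27 (SE 0.096, adjusted p 0.181), and -0.30 (SE 0.080, adjusted p 0.0563) with each animal as a block, where 2.49% of all genes were called. *Kcnh7* held 2.43 ± 1.16 CPM in control, 3.54 ± 1.01 CPM in cKO+/- and 4.33 ± 1.70 CPM in cKO-/- cerebella (log2 fold change 0.41, SE 0.19, adjusted p 0.150), with 5 of 6 cKO-/- libraries above every control and *Kcnh7* at only 10 reads in control Sample_1190. Its hippocampal estimate was 0.10 (SE 0.14, adjusted p 0.727). *Kcnh6* was tested in the hippocampus only (0.01, SE 0.088, adjusted p 0.971), where it held 1.59 ± 0.404 CPM in control and 1.54 ± 0.28 CPM (n = 5) in cKO-/- mice.

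In the hippocampus *Kcnh7* differed by sex in its values. Control females held 4.03 to 5.49 CPM and control males 10.2 to 17.3 CPM, and cKO+/- females held 3.66 to 5.58 CPM and cKO+/- males 7.61 to 13.4 CPM. In cKO-/- mice the 2 fitted females held 9.59 and 11.9 CPM and males 6.07 to 10.8 CPM, so that the sexes overlapped there. The female minus male log2 difference was -0.80 (SE 0.23, p 0.003, adjusted p 0.105, edgeR), beside 0.907% of all genes called by edgeR. DESeq2, which called more genes for sex in the hippocampus than edgeR did, called it (-0.81, adjusted p 0.016). The edgeR difference ranged from -0.99 to -0.68 when 1 animal was left out and was called in 2 of those 17 fits. The calls were those without Sample_936 and without Sample_1385. No other member passed adjustment for sex in the hippocampus with either tool, and DESeq2 gave no adjusted p for *Kcnh6*.

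Among the ELK members other than *Kcnh3*, *Kcnh4* was tested in the hippocampus only. It held 4.68 ± 1.23 CPM in control, 4.36 ± 0.772 CPM in cKO+/- and 3.85 ± 0.858 CPM (n = 5) in cKO-/- mice (log2 fold change -0.12, SE 0.079, adjusted p 0.402). *Kcnh8* was under the filter in both tissues. Its 5 cKO-/- hippocampal libraries, at 0.517 to 0.609 CPM (9 to 22 reads), lay below the 6 controls at 0.670 to 1.43 CPM (27 to 62 reads), which 2.12% of the tested genes also showed. In the fit without the filter, where 3.23% of genes were called, its hippocampal log2 fold change was -0.34 (SE 0.15, adjusted p 0.266).

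The hippocampal library of Sample_1160, outside these fits, held 5 members below the other 17 hippocampal libraries, with *Kcnh1* at 20.3 CPM, *Kcnh5* at 0.898 CPM, *Kcnh6* at 0.565 CPM, *Kcnh7* at 1.08 CPM and *Kcnh8* at 0.180 CPM, while *Kcnh2* stood at 33.7 CPM and *Kcnh4* at 4.49 CPM. *Mcrs1* stood at 80.5 CPM there. With it the allele effect was -0.21 for *Kcnh1* (SE 0.0987, adjusted p 0.291), -0.07 for *Kcnh2*, -0.12 for *Kcnh4*, -0.14 for *Kcnh5*, -0.10 for *Kcnh6* in place of 0.01, and 0.02 for *Kcnh7*, with 0 of these 6 called.

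**Figure D4:**
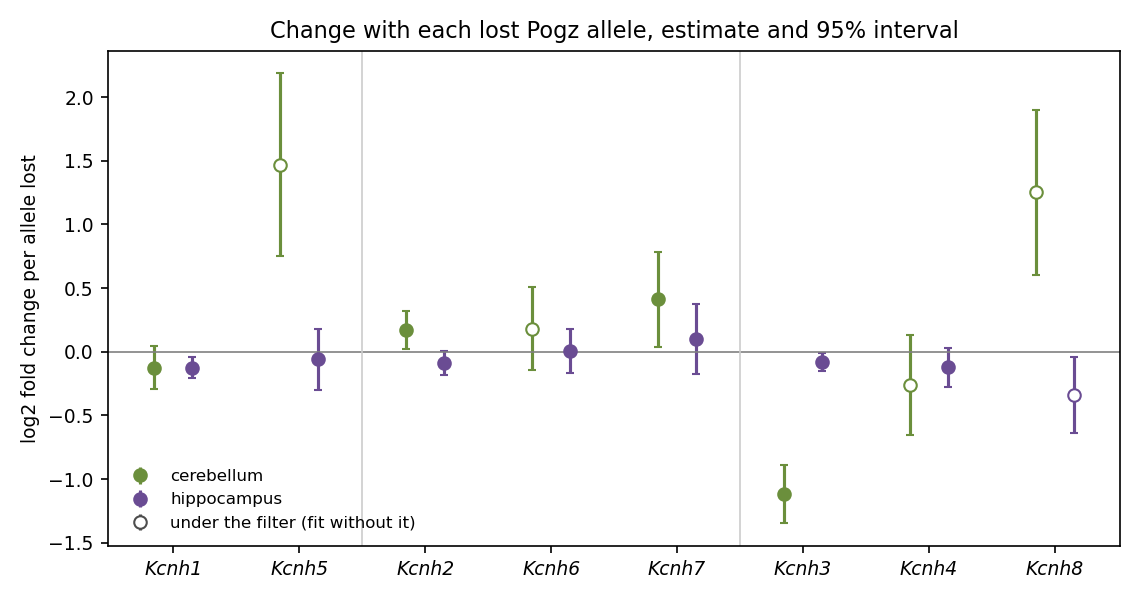
Log2 fold change per lost *Pogz* allele with its 95% interval for each member in the cerebellum and the hippocampus. Open symbols are members under the filter, taken from the fit without it. The intervals of *Kcnh3* are drawn as a description and are no test, since its values chose the family. *Kcnh3* stands at -1.12 in the cerebellum, and the open cerebellar symbols of *Kcnh5* and *Kcnh8* at 1.47 and 1.25.

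The 4 members under the filter in the cerebellum were read in a fit without it, which called 9.27% of 20443 genes (4.88% higher). *Kcnh5* and *Kcnh8*, of different branches, were called higher, and *Kcnh4* (-0.26, SE 0.20, adjusted p 0.438) and *Kcnh6* (0.18, SE 0.17, adjusted p 0.523) were not called. *Kcnh5* ranged from 0.0354 to 0.550 CPM in control (1 to 16 reads), 0.239 to 3.92 CPM in cKO+/- (7 to 128 reads) and 0.419 to 4.90 CPM in cKO-/- cerebella (9 to 131 reads), with a log2 fold change per allele of 1.47 (SE 0.37, adjusted p 0.0163). *Kcnh8* ranged from 0.032 to 0.137 CPM in control (1 to 4 reads), 0.109 to 0.796 CPM in cKO+/- (3 to 26 reads) and 0.0446 to 1.31 CPM in cKO-/- cerebella (1 to 35 reads), with 1.25 (SE 0.33, adjusted p 0.0223). The allele effect of *Kcnh8* was 1.59 lower in the hippocampus than in the cerebellum on the log2 scale (-1.59, SE 0.36, adjusted p 0.0211), and that of *Kcnh5* had an adjusted p of 0.0519 (-1.48, SE 0.39), where 1.05% of 20066 genes were called.

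The highest values of both genes were in the same 4 cerebella. *Kcnh5* stood at 2.70, 3.92, 4.90 and 4.08 CPM in Sample_933, Sample_1433, Sample_936 and Sample_1385, and at or below 0.866 CPM in the other 14 cerebella. *Kcnh8* stood at 0.504, 0.796, 1.31 and 1.12 CPM in those 4 animals and at or below 0.279 CPM in the others. All 4 carry numbers outside the run that holds the controls. In that run alone, the log2 fold change per allele was 0.70 for *Kcnh5* (SE 0.24, adjusted p 0.212) and 0.49 for *Kcnh8* (SE 0.35, adjusted p 0.53), and beside the covariate for the run it was 0.66 (adjusted p 0.426) and 0.59 (adjusted p 0.508). Without cKO-/- Sample_1385 the values were 1.09 (adjusted p 0.0767) and 0.89 (adjusted p 0.131). The call on *Kcnh8* was also lost without cKO-/- Sample_936 (1.09, adjusted p 0.0743) and without control Sample_1190 (1.14, adjusted p 0.0527).

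Markers of other cell types also varied over these cerebella. Sample_933, Sample_936 and Sample_1433 are the 3 libraries high in *Ttr*, and they held *Hoxb3*, which marks hindbrain, at 0.90, 4.15 and 1.47 CPM, against at most 0.0354 CPM in control cerebella. Sample_1385 held *Ttr* at 8.63 CPM and *Hoxb3* at 0.204 CPM, and its granule cell markers summed to 3333 CPM, the lowest of the 18 cerebella. Sample_1371 and Sample_1379 held *Kcnh5* at 0.419 and 0.850 CPM, against at most 0.550 CPM in control cerebella. They held *Kcnh8* at 0.279 and 0.204 CPM, against at most 0.137 CPM in control cerebella. Their *Ttr* stood at 22.5 and 44.6 CPM, with granule cell sums of 3957 and 4420 CPM. Sample_933 and Sample_936, both high in *Kcnh5* and *Kcnh8*, had granule cell sums of 6006 and 5565 CPM. Summed markers of brainstem and midbrain neurons, 10 genes of which *Slc6a4*, *Slc6a3* and *Chat* were below 1 CPM in every cerebellum, ranged from 12.8 to 18.6 CPM in control, 10.5 to 23.1 CPM in cKO+/- and 9.60 to 28.9 CPM in cKO-/- cerebella, with 13.5 CPM in Sample_933 and 12.1 CPM in Sample_1385. Without the 3 libraries high in *Ttr*, both genes stayed called (*Kcnh5* 1.16, adjusted p 0.0235, and *Kcnh8* 1.06, adjusted p 0.0378). The part of the granule cell and hindbrain levels in these values was not tested.

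Of the abundant members, *Kcnh2* was called for the covariate of the animal numbers in the cerebellum, and *Kcnh1* was not. *Kcnh2* held 41.6 and 40.8 CPM in the 2 cKO-/- cerebella within the run and 52.3 to 74.5 CPM in the 4 outside it, and in cKO+/- mice 44.2 to 56.4 CPM (n = 3) within and 49.8 to 73.2 CPM (n = 3) outside. The cerebella highest in *Kcnh2* were those highest in *Kcnh5* and *Kcnh8*. They were Sample_936, Sample_1433, Sample_1385 and Sample_933, at 74.5, 73.2, 66.9 and 58.9 CPM, with every other cerebellum at or below 56.8 CPM. The covariate's term for *Kcnh2* was 0.48 (SE 0.12, adjusted p 0.0209), beside 9.2% of all genes called, and the *Pogz* allele effect next to it was 0.00 (SE 0.070, adjusted p 0.997), where 2.2% of all genes were called. *Kcnh1* stood the other way, at 90.5 and 91.9 CPM in the 2 cKO-/- cerebella within the run and at 47.7 to 71.5 CPM in the 4 outside it (term -0.41, SE 0.14, adjusted p 0.0819), and its allele effect next to the term was -0.00 (SE 0.087, adjusted p 0.992), with 0.08 (SE 0.082, adjusted p 0.624) in the run alone. The term was also not called for *Kcnh7* (0.41, SE 0.36, adjusted p 0.512). In the hippocampus 0 of 7 members were called for it, beside 0% of all genes. The number range holds no control outside it, so that number and genotype are partly confounded and cannot be told apart fully. Granule cell markers moved with it too: 4 of 6 (*Gabra6*, *Fat2*, *Cbln3* and *Zic2*) were called lower outside the run (log2 differences of all 6 -0.62 to -0.34), while 0 of 6 Purkinje cell markers were called (-0.02 to 0.06). Called higher outside it were all 3 choroid plexus markers tested (1.73 to 9.89) and 1 of 3 brainstem and midbrain markers tested (-0.05 to 1.42). Of 4 microglial markers tested, *C1qa* (0.68, SE 0.107, adjusted p 0.0027, edgeR), *Csf1r* (0.49) and *Cx3cr1* (0.41) were also called higher. The value of *P2ry12*, the remaining microglial marker, is not given here. Summed oligodendrocyte markers ranged from 4551 to 8452 CPM outside the run and from 3433 to 5891 CPM within it, given without a test. Markers of astrocytes and endothelium are not given by number range here. The part of these levels in the values of *Kcnh1* and *Kcnh2* was not tested.

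**Figure D5:**
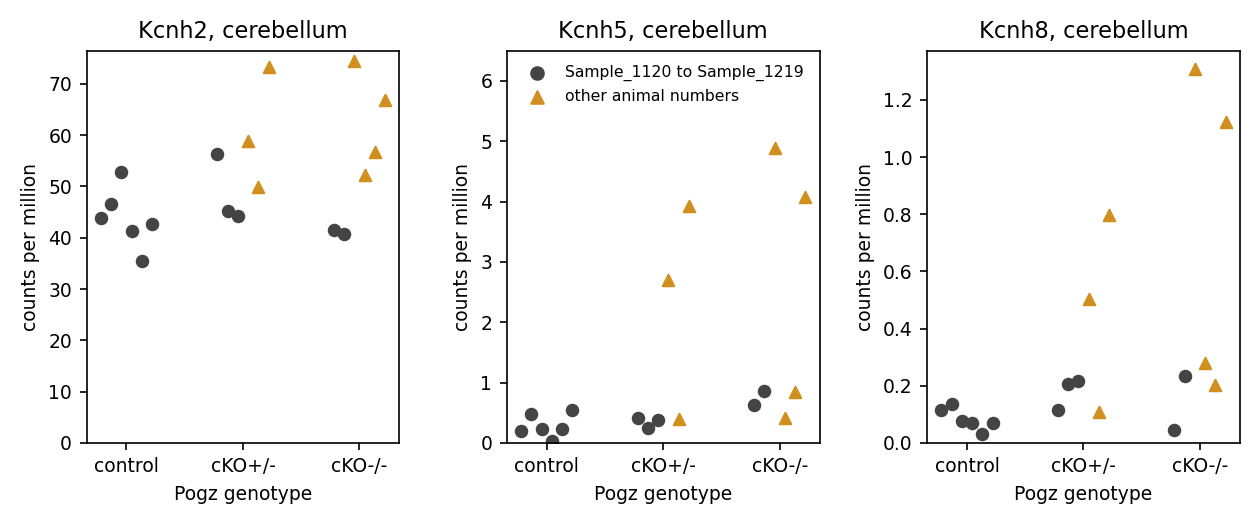
CPM of *Kcnh2*, *Kcnh5* and *Kcnh8* in the 18 cerebella by genotype, with Sample_1120 to Sample_1219 as circles and the 7 other animals as triangles, on axes that start at 0. *Kcnh5* reaches 4.90 CPM and *Kcnh8* 1.31 CPM only in triangles. The cKO-/- values of *Kcnh2* are 40.8 and 41.6 CPM in circles and spread from 52.3 to 74.5 CPM in triangles.

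Genes that serve these channels were read from a fixed list of 20 partners, of which 19 were in the tables. In the cerebellum 15 were tested and 0 were called, beside 13.7% of all genes (log2 fold changes -0.09 to 0.17, median 0.04). In the hippocampus 16 were tested and 3 were called, beside 4.44% of all genes. *Hsp90aa1*, a chaperone of ERG channel folding, rose (0.16, SE 0.04, adjusted p 0.0229). *Nedd4l*, a ubiquitin ligase that removes channels from the membrane, fell by 0.17 on the log2 scale (SE 0.041, adjusted p 0.0264), and *Rnf207*, a ubiquitin ligase linked to ERG channels in the heart, fell by 0.58 (SE 0.13, adjusted p 0.0156). The median of the 16 was 0.00, the same as over all genes tested. Of 10 other channels with a cyclic nucleotide binding domain, 4 were tested in the cerebellum and 1 was called, beside 13.7% of all genes. It was the pacemaker channel *Hcn2*, which rose (0.21, SE 0.054, adjusted p 0.0164). In the hippocampus 5 were tested and 0 were called, beside 4.44% of all genes, with *Hcn2* at -0.10 (SE 0.052, adjusted p 0.298), and its allele effect differed between the tissues (-0.32, SE 0.077, adjusted p 0.025), beside 1.49% of all genes called.

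The genes whose values ran most like *Kcnh3* across the 18 cerebella are given as a description. By Pearson's r of log2 CPM they were *Kirrel2* (0.890), *Tsc22d3* (0.853), *Emid1* (0.852), *Prodh* (0.842) and *Gpt2* (0.840), and these correlations hold the genotype difference that chose *Kcnh3*. With the genotype means removed, they were *Tmem126b* (0.824), *Xist* (0.752), *Emid1* (0.730), *Acer2* (0.727) and *Ggct* (0.726), so that *Emid1* is on both lists and *Xist*, the transcript of the inactive X chromosome of females, is on the second. The same measure for *Mcrs1* was 0.564 and 0.253. For *Kcnh1* it was 0.213 and -0.11, for *Kcnh2* -0.29 and 0.248, and for *Kcnh7* -0.39 and 0.0258. The points share their libraries and depth.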

How the data were processed

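RNA was sequenced from the cerebellum and hippocampus of 18 mice (poly(A)-selected, 43 bp paired-end reads). Per the study's methods and the labels, the authors aligned reads with STAR (250a) to mm9 and deposited raw counts per gene, although the coordinates in the tables fit GRCm38, and whether strand was used is not given in the sources used here. All sample columns were used. Cerebellar libraries totalled 21421850 to 32544929 counts, hippocampal ones 17609321 to 45544188.

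Counts were fitted with edgeR 4.0.16 in R 4.3.3 (quasi-likelihood F-test, TMM factors, terms for sex and number of *Pogz* alleles lost). A gene was tested where 6 or more libraries exceeded 1 CPM, and p-values were adjusted over all of them (Benjamini-Hochberg, threshold 0.05). Fold changes are per lost allele unless stated, and sex differences are female minus male. Hippocampal fits held 17 libraries, without Sample_1160. The tissue difference of the genotype effect came from an interaction term, and that in controls from the control libraries. DESeq2 1.42.0, RLE size factors, no filter, other designs, each animal left out and the animal as a block were alternatives. Because both tissues came from the same animals, the numbers pair the libraries: deviations from group means correlated between the tissues of an animal with a median r of 0.217 (-0.15 to 0.435, above 0.1 in 15 of 17 animals).

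The steps were tested on simulated data. Members were named by symbol, neighbours by distance (100 kb) and other genes from fixed lists or as the 5 most like *Kcnh3* by Pearson's r. Some genes of the marker lists are not reported here, and the lists were summed without them. The members and lists were chosen with earlier results of these data known. The labels do not exclude that p-values measure technical spread in part.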

Additional observations from a re-analysis of the deposited data

Results flagged for a closer look

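Of 48 groups of member, tissue and genotype, 2 held a library that stood apart from the rest of its group by Dixon's ratio, where chance gives about 1 in 20. In the hippocampus of cKO+/- mice, *Kcnh3* was lowest in Sample_1433 at 114.919 CPM, and the nearest library held 126.586 CPM (gap over range 0.643, critical value 0.625). In the hippocampus of cKO-/- mice, *Kcnh6* was highest in Sample_1385 at 2.025 CPM, and the nearest library held 1.494 CPM (gap over range 0.767, critical value 0.71). The effect of *Pogz* dosage on *Kcnh8* differed between the tissues in the fit without a filter, by -1.59 on the log2 scale (hippocampus minus cerebellum, adjusted p 0.0211, edgeR). Its cerebellar part rests on 1 to 35 reads per library. The cerebellar call was lost in Sample_1120 to Sample_1219 alone and beside the covariate for that run. The tissue difference was not refitted under those settings. *Kcnh3* stood at 239.1 CPM in the hippocampal library of Sample_1160, which is outside the fits, against at most 140 CPM in the control hippocampi.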

How the results depend on the processing

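The cerebellar value of *Kcnh3* ranged from -1.29 to -1.06 over the alternatives. These refit the libraries whose values chose the gene, so nothing is read from its kept sign. The settings restricted to Sample_1120 to Sample_1219 or without libraries high in *Ttr* were chosen after seeing the data. Without the filter 2 other members were called in the cerebellum and 1 for the tissue difference. DESeq2 called 1 member for sex in each tissue. Counts of all genes called moved as follows: with DESeq2, 1048 in the hippocampus, 349 for the tissue difference and 17 and 617 for sex in the cerebellum and hippocampus; with all 18 hippocampal libraries, 246 for dosage and 6 for sex; within the run, 238 in the cerebellum and 18 in the hippocampus; with the range covariate, 308, 68 and, for the tissue difference, 10. With the animal as a replicate block the tissue difference was called for 338 genes in place of 203, *Kcnh1* stood at 0.0364, and no call on a member changed. Signs also turned for *Kcnh1* (0.0760) and *Kcnh2* (-0.0121) in the cerebellum and *Kcnh7* (-0.17) in the hippocampus within the run, for *Kcnh6* in the hippocampus without the sex term (-0.0170), with all 18 libraries (-0.10) and with the covariate (-0.0795), and for cerebellar *Kcnh6* without the filter with the covariate (-0.13) or within the run (-0.15). With all 18 libraries, hippocampal *Kcnh3* stood at 0.0327, and its sex difference at 0.12 and that of *Kcnh2* at 0.0237. The causes were not tested, beyond fewer animals within the run. Leaving out 1 animal gave 899 (without Sample_1385) to 2555 (without Sample_1160) genes in the cerebellum, 278 (Sample_1371) to 929 (Sample_936) in the hippocampus, 85 (Sample_1190) to 356 (Sample_1160) for the tissue difference and 44 (Sample_1170) to 254 (Sample_1176) for sex in the hippocampus. Members called then ranged from 0 to 1 for dosage and for sex in the hippocampus, and from 2 to 3 in place of 5 for the tissues, since *Kcnh4* and *Kcnh5* then leave the filter. Values whose sign turned ranged, in the hippocampus, from -0.154 to 0.0172 for *Kcnh5*, -0.0451 to 0.0409 for *Kcnh6* and -0.0368 to 0.202 for *Kcnh7*. For sex they ranged from -0.0556 to 0.0803 (*Kcnh1*), -0.0941 to 0.0345 (*Kcnh2*) and -0.264 to 0.0181 (*Kcnh7*) in the cerebellum and from -0.0414 to 0.0263 (*Kcnh2*) and -0.0595 to 0.00762 (*Kcnh3*) in the hippocampus. For *Kcnh1* they ranged from -0.0536 to 0.125 between control tissues and from -0.0959 to 0.0509 for the tissue difference of dosage. At 13 to 72 reads of *Kcnh3* per cKO-/- cerebellum, depth limits how finely its level can be read.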
